A study of Mus musculus with 2 samples.

Results

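Cluster 2 of a WT tongue section and cluster 2 of an H3K36M tongue section were compared, gene by gene, in spatial transcriptomes of mice treated with 4NQO. The comparison covered the 284 genes listed in both deposited cluster tables, matched by gene identifier, of 879 genes listed in either. The WT table held 865 genes and the H3K36M one held 298, so 581 genes were in the WT table alone and 14 in the H3K36M table alone. The WT mouse had the genotype Krt14-Cre(-); LSL-H3K36M and the H3K36M mouse Krt14-Cre(+); LSL-H3K36M, so that both carried the LSL-H3K36M allele and both were given 4NQO. Cre was driven by the Krt14 promoter, which is active in the basal layer of squamous epithelium, and the allele codes for histone H3 with lysine 36 replaced by methionine. There was 1 section per genotype. The sources used here do not state ages, the length of treatment or how many mice lie behind a section.

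4NQO is a DNA-damaging carcinogen that produces lesions of the oral epithelium in mice. H3K36M blocks the enzymes that methylate lysine 36 of histone H3, a mark of transcribed gene bodies and of regions around them. In the tongue surface, basal keratinocytes carry keratins 5, 14 and 15, the layers above them keratins 4 and 13, and wounded or hyperplastic epithelium adds keratins 6, 16 and 17 together with the alarmins S100a8 and S100a9. Striated muscle lies directly under this epithelium.

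Each array spot is a small area of tissue that can hold several cell types, and the clusters are groups of spots with similar transcripts. The values below are rates, the unique molecular identifiers (UMIs, counts of captured transcript molecules) of a gene per 10000 UMIs of the cluster, which puts both sections at a common depth. WT cluster 2 held 1354340 UMIs and H3K36M cluster 2 held 306551, of which the 284 genes took 51.0% and 47.6%. The median gene rested on 1511 UMIs in WT and on 324.5 in H3K36M cluster 2, and the lowest counts were 27 and 10. The deposited metrics gave 364 and 252 spots under tissue with medians of 4899 and 763.5 UMIs per spot, while the medians worked out from the cluster averages were 5027 and 1380.5. The source of this gap was not tested, and all rates rest on the cluster averages read in this way. The same metrics placed 36.2% of WT reads and 6.93% of H3K36M reads in spots under tissue. Intervals in parentheses are exact at 95% and cover counting error only. With 1 section a side there was no spread between animals and no test, and genotype, depth, the tissue in the section and the handling of each slide cannot be told apart. Nor can fewer cells of a type be told apart from less RNA per cell.

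The number 2 was assigned separately in each section, so it does not by itself make the regions correspond. Across the 284 genes, which are not independent and come from the same pair of libraries, the rates of WT cluster 2 had a Spearman correlation of 0.86 with H3K36M cluster 2. Against H3K36M clusters 1, 3 and 4 it was 0.54, 0.69 and 0.55. The median absolute log2 ratio to WT cluster 2 was 0.29 in H3K36M cluster 2 and 0.75, 0.59 and 0.93 in clusters 1, 3 and 4. H3K36M clusters 1, 3 and 4 held 17291, 193928 and 53037 UMIs, fewer than the 306551 of cluster 2. The part of counting error in these contrasts was not tested. H3K36M cluster 2 was also closer to WT cluster 2 than WT cluster 1 was, which had a correlation of 0.70 and a median absolute log2 ratio of 0.72 with it. The clusters had been drawn from these same counts.

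Most of the 284 genes had like rates in both regions, and the genes that differed fell into a few groups. The median log2 ratio of H3K36M over WT was -0.06, with quartiles of -0.37 and 0.22 and extremes of -2.54 and 3.003. The rates of 211 genes (74.3%) lay within 1.5-fold of each other. At least 2-fold higher in H3K36M cluster 2 were 21 genes (7.39% of the 284), and at least 2-fold lower were 22 (7.75%). The 21 higher genes were 9 mitochondrially encoded genes, 10 skeletal muscle genes, the lysozyme-like gene Lyg1 and the non-coding Gm42418. The 22 lower genes were led by S100a8, Anxa1, S100a9 and Krt17, and 11 of them belonged to the stress keratin and cornified envelope list or the annexin and S100 list. The whole counting interval lay past 2-fold for 20 of the higher and 14 of the lower genes. The nearest genes on each side of the upper limit were Tpm1, with a log2 ratio of 1.16, and Krt15 with 0.90, and those at the lower limit were Lce3f with -1.02 and Ly6d with -0.97.

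**Figure D1:**
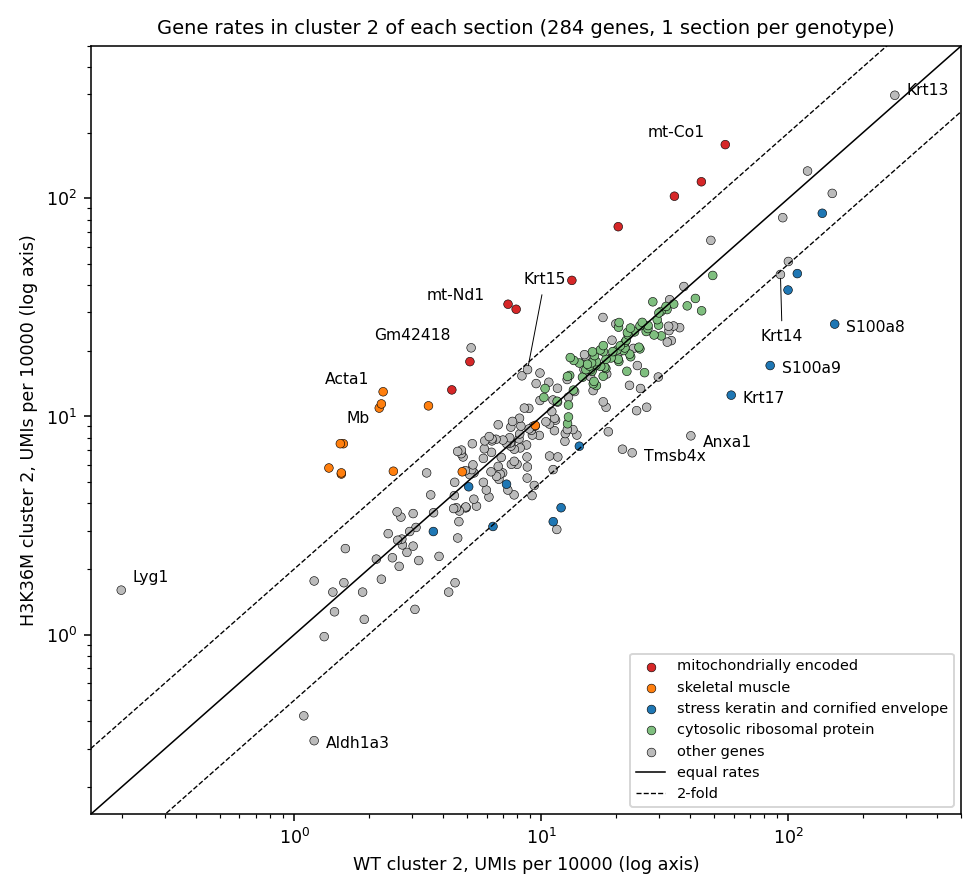
Rates of the 284 genes in WT cluster 2 (x axis) and H3K36M cluster 2 (y axis), both in UMIs per 10000 on log axes. Each point is 1 gene, coloured by gene list. The solid line marks equal rates and the dashed lines 2-fold differences. Most points lie between the dashed lines, the 9 mitochondrially encoded genes lie above the upper line, and S100a8, S100a9, Krt17 and Anxa1 lie farthest below the lower line among abundant genes.

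A different common depth adds the same amount to every log2 ratio, so the order of the genes and the distance of a gene from the median of all 284 do not depend on it. Directions of gene groups are therefore given relative to that median, -0.06. Scaling by the deposited median UMIs per spot would move the median by 0.82 and leaving the averages unscaled by -1.86. A gene appears to have been listed when its average reached 1 in some cluster, a rule read here from the deposited averages. That limit is 1.99 UMIs per 10000 for WT and 7.24 for H3K36M. On this reading, genes low in every H3K36M cluster are not among the 284. In H3K36M cluster 2 itself 97 of the 284 lay under 7.24 and were listed through another cluster, among them 5 of the 21 higher and 12 of the 22 lower genes.

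The alarmin genes S100a8 and S100a9 were far lower in H3K36M cluster 2 than in WT cluster 2. They encode the subunits of calprotectin, a calcium-binding protein of stressed keratinocytes and of neutrophils. S100a8 (chr3:90668978-90670035, plus strand, GRCm38) had 20850 UMIs in WT cluster 2 and 813 in H3K36M cluster 2, rates of 154 and 26.5 per 10000. It was 5.80-fold lower in H3K36M (5.41 to 6.23), the lowest ratio of the 284 genes. S100a9 had 11427 and 525 UMIs, rates of 84.4 and 17.1, and was 4.93-fold lower (4.51 to 5.39). The UMIs of the pair stayed in similar proportion, with 1.82 S100a8 UMIs per S100a9 UMI in WT and 1.55 in H3K36M cluster 2.

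Within its own section each region held a different place for this pair. The WT rate of S100a8 was 202, 154 and 99.3 in clusters 1, 2 and 3, so it was abundant in every WT region. In the H3K36M section it was 3.47, 26.5, 1.44 and 5.09 in clusters 1 to 4, so that cluster 2 was the one region with more than 10 UMIs per 10000. S100a9 went from 116 to 84.4 and 67.5 across the WT clusters, and was 1.74, 17.1, 0.619 and 3.02 in the H3K36M clusters. In the authors' deposited table for WT, the cluster 2 log2 fold changes against the rest of the section were -0.33 for S100a8 and -0.41 for S100a9. In the authors' deposited table for H3K36M they were 3.50 and 3.83. Both genes thus marked cluster 2 within the H3K36M section and yet were lower there than in any WT cluster. S100a8 and S100a9 were the only members of the 12-gene neutrophil list in either table, and the part of neutrophils in the result was not tested.

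The promoters of the 3 genes with the lowest ratios are shown as the far end of the lower set, followed by Krt17 with a log2 ratio of -2.23. They run from 250 bases before to 50 bases after the RefSeq start (GRCm38.p6), 5′ to 3′ on the strand of the gene. Capitals mark matches on either strand to the core promoter motif TATAAA, the AP-1 motif TGANTCA and the E-box CANNTG. The windows are chr3:90668821-90669120 (plus strand) for S100a8, chr19:20390622-20390921 (minus strand) for Anxa1 and chr3:90695672-90695971 (minus strand) for S100a9.
S100a8: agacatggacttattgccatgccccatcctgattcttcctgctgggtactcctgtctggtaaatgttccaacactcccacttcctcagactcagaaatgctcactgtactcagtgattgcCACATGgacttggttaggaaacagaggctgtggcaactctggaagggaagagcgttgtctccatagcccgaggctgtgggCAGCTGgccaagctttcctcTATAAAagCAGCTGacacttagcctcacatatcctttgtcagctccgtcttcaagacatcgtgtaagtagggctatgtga
Anxa1: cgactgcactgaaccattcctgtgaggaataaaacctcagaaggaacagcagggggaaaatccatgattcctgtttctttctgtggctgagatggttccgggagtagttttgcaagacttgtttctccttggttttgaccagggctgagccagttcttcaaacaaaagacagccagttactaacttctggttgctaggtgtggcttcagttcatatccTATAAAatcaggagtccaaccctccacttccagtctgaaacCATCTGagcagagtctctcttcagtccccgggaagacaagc
S100a9: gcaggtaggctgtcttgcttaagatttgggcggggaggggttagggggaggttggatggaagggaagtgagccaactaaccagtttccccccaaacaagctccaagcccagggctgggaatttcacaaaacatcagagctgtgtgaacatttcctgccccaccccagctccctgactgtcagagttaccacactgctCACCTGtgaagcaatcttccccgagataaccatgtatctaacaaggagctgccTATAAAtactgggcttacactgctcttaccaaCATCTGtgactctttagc
Each holds 1 TATAAA, which starts at base 221 of the window in S100a8, 219 in Anxa1 and 251 in S100a9. None holds TGANTCA. The RefSeq table held promoters for 17 of the 22 lower genes, and 10 of these 17 (58.8%) had TATAAA, against 13.6% of all 32851 promoters in the table and 14.5% of those of the genes within 2-fold. TGANTCA was found in 3 of 17 (17.6%), against 7.81% of all and 14.04% of those within 2-fold. Several of the 17 belong to neighbouring gene families, so these shares describe related sequences.

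Other annexin and S100 genes were lower as well. Of the 9 members in both tables, 5 were at least 2-fold lower and 0 higher, the list median was -1.28, and all 9 lay below the median of all genes. Anxa1, which encodes annexin A1, a phospholipid-binding protein that dampens inflammation, had 5456 and 250 UMIs, rates of 40.3 and 8.16, and was 4.94-fold lower (4.35 to 5.63). S100a11, the S100 protein that binds annexin A1, had rates of 11.5 and 3.03 and was 3.81-fold lower (3.09 to 4.74). S100a6, a calcium-binding protein also known as calcyclin, had 26.7 and 11.03 and was 2.42-fold lower (2.16 to 2.71). Anxa1 did not share the place of S100a8 in the H3K36M section. Its rate there was 12.7, 8.16, 4.18 and 84.7 in clusters 1 to 4, against 46.7, 40.3 and 16.8 in WT clusters 1 to 3, so its WT level was exceeded in H3K36M cluster 4 alone.

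Stress keratins and cornified envelope genes were lower in H3K36M cluster 2. Of 13 members in both tables, 8 were at least 2-fold lower and 0 higher. The list median was -1.26, the range -2.54 to -0.09, and all 13 lay below the median of all genes. Summed, the 13 genes took 702 UMIs per 10000 in WT and 255 in H3K36M cluster 2, 2.75-fold less (2.69 to 2.82). S100a8 and S100a9 are among the 13, so this list overlaps the one above. In the H3K36M section the summed rate was 111, 255, 339 and 161 in clusters 1 to 4, and in the WT section 1100, 702 and 759, so every H3K36M region was below every WT region.

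The stress keratins did not all differ by the same amount. Krt17 (chr11:100256217-100261029, minus strand) had 7948 and 384 UMIs, rates of 58.7 and 12.5, and was 4.68-fold lower (4.23 to 5.20). Krt16, its neighbour and the partner of keratin 6, had rates of 99.6 and 38.0 and was 2.62-fold lower (2.47 to 2.79). Krt6b had 109 and 45.2 and was 2.40-fold lower (2.27 to 2.54), while its close copy Krt6a had 137 and 85.5 and was 1.60-fold lower (1.54 to 1.67). The intervals of Krt6a and Krt6b do not overlap, and there were 1.26 Krt6a UMIs per Krt6b UMI in WT against 1.89 in H3K36M cluster 2. Reads of these near-identical copies, and of Krt14, Krt16 and Krt17, can be split between genes by the counting, so single values in the family are uncertain.

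The cornified envelope genes of this list are small proteins cross-linked under the membrane of surface keratinocytes. Sprr1a, a small proline-rich protein, had rates of 11.2 and 3.29 and was 3.39-fold lower (2.77 to 4.19). Sprr1b had 12.02 and 3.82 and was 3.15-fold lower (2.61 to 3.83). Sprr3 had 14.3 and 7.31, a log2 ratio of -0.96, just short of 2-fold. The late cornified envelope gene Lce3f had 6.37 and 3.13 and was 2.03-fold lower, with an interval that reached inside 2-fold (1.65 to 2.54). These genes were lower in cluster 2 than in the rest of their own section on both sides, with log2 fold changes in the authors' deposited tables of -1.79 and -0.98 for Sprr1a and -2.63 and -1.44 for Lce3f.

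Many of these genes are neighbours on chromosome 3. The stretch from S100a6 to S100a11, 2.91 Mb from 90612882 to 93526287 (GRCm38), belongs to the epidermal differentiation complex. Its ends were chosen here after the values were seen. The stretch held 16 of the 284 genes, of which 7 were at least 2-fold lower and 0 higher, and all 16 lay below the median of all genes. Their median was -0.96 and their range -2.54 to -0.09. The members nearest to equality were Lce3a, Tchh and Lce3b. Over chromosome 3 as a whole the median of 28 genes was -0.53.

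**Figure D2:**
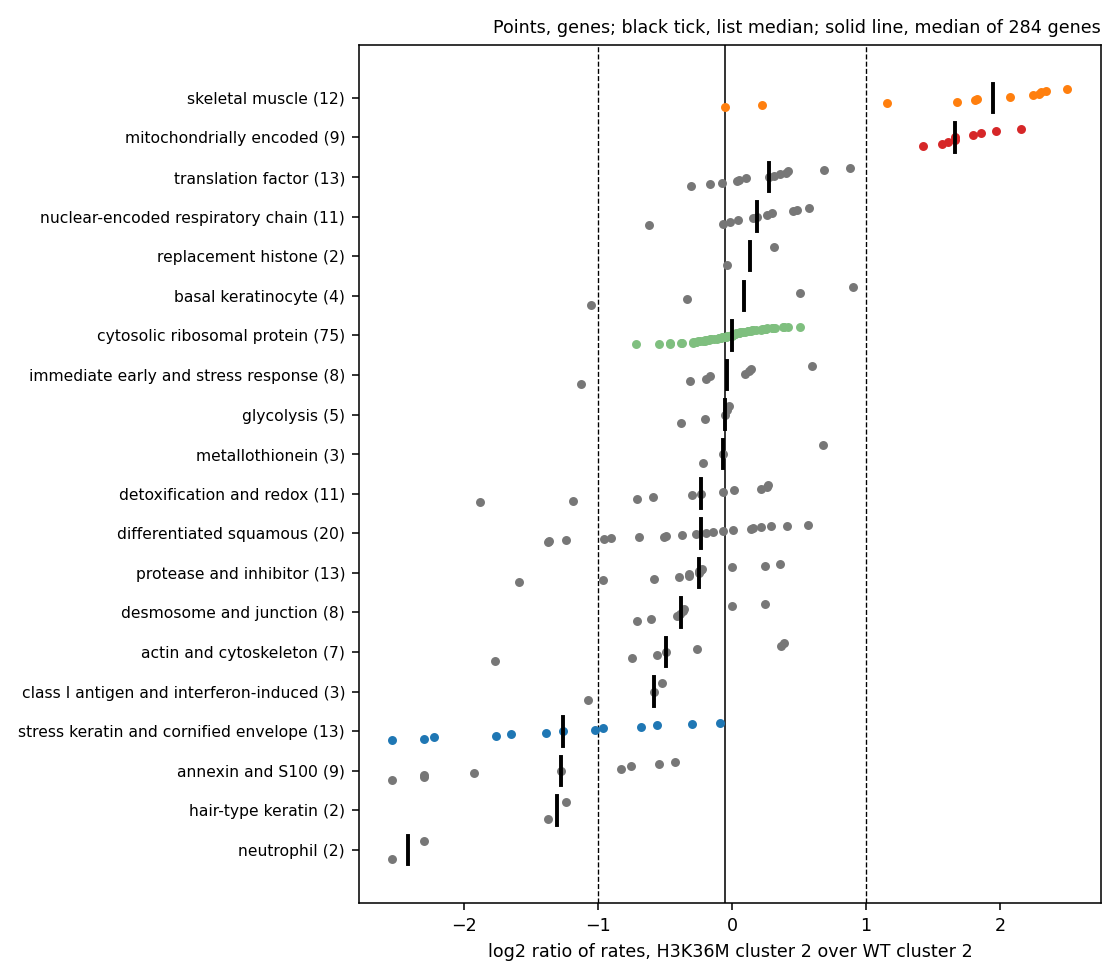
Log2 ratio of rates, H3K36M cluster 2 over WT cluster 2 (x axis), for every member of the 20 gene lists with at least 2 members (rows, number of members in brackets). Points are genes, black ticks list medians, the solid line the median of all 284 genes and the dashed lines 2-fold differences. Muscle and mitochondrially encoded genes lie to the right with medians of 1.95 and 1.67, and the stress keratin and the annexin and S100 lists to the left with -1.26 and -1.28, while the 75 ribosomal protein genes stay between -0.72 and 0.51.

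The remaining 11 lower genes had mixed functions. Krt36 and Krt84, hair-type keratins of the filiform papillae, were 2.59-fold (1.95 to 3.50) and 2.36-fold (1.70 to 3.35) lower, and Krt76, a keratin of the oral surface, 2.58-fold (1.46 to 4.95) on 148 and 13 UMIs. All of these were low in cluster 2 of both sections against the rest, by -2.28 and -3.10 for Krt36 in the authors' deposited tables. Aldh1a3, an enzyme that makes retinoic acid, was 3.69-fold lower (1.96 to 7.84) on 163 and 10 UMIs. Arg1, the arginine-splitting enzyme arginase, had rates of 4.22 and 1.57 and was 2.69-fold lower (2.004 to 3.69). Serpinb3a, an inhibitor of proteases in squamous epithelium with close copies in its cluster, had 21.3 and 7.08 and was 3.01-fold lower (2.62 to 3.47).

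Tmsb4x, which encodes thymosin beta 4, a protein that binds free actin, had rates of 23.3 and 6.82 and was 3.42-fold lower (2.97 to 3.95). It was the 1 member of the 7 actin and cytoskeleton genes past 2-fold, and Actg1 and Actb had log2 ratios of -0.56 and 0.36. The redox protein gene Txn1 had 24.3 and 10.6 and was 2.29-fold lower (2.04 to 2.57). The small heat shock protein gene Hspb1 had 18.7 and 8.51 and was 2.19-fold lower (1.93 to 2.50). B2m, the light chain of class I antigen molecules, had 9.17 and 4.34 and was 2.11-fold lower (1.77 to 2.55). The heavy chain genes H2-K1 and H2-D1, close copies of each other, had log2 ratios of -0.58 and -0.52, so the 3 class I members all lay below the median of all genes and 1 passed 2-fold. Set against H3K36M cluster 4 in place of cluster 2, the class I median was 0.26 and the median of all genes -0.58. B2m alone of the 3 stayed below 0, at -0.25, and all 3 lay above the median of all genes there.

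The basal keratins split by gene. Krt14, whose promoter drives Cre in this model, had 12573 and 1373 UMIs, rates of 92.8 and 44.8, and was 2.07-fold lower in H3K36M cluster 2 (1.96 to 2.19). Its log2 ratio of -1.05 lay close to the limit and came to -0.95 when both regions were scaled by the UMIs of the 284 genes, so that this call depends on the depth chosen. Krt5, the partner of keratin 14, had 32.7 and 25.9, a ratio of 0.792 (0.733 to 0.854). Krt15, a keratin of resting basal cells, had 1191 and 503 UMIs, rates of 8.79 and 16.4, and was 1.87-fold higher (1.68 to 2.07). The growth factor-binding protein gene Igfbp2, the 4th member of the basal list in both tables, was 1.42-fold higher (1.21 to 1.67). These 4 members therefore had 0 higher and 1 lower gene past 2-fold, with 2 on each side of the median of all genes. The list has 18 genes, of which 9 were in the WT table and 4 in the H3K36M table, so its other genes were not compared.

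The proportion among these keratins differed between the regions. There were 10.6 Krt14 UMIs per Krt15 UMI in WT cluster 2 and 2.73 in H3K36M cluster 2, and 2.83 and 1.73 Krt14 UMIs per Krt5 UMI. Cluster 2 was the WT region richest in Krt15, with 2.52, 8.79 and 4.53 UMIs per 10000 in clusters 1 to 3. In the H3K36M section Krt15 was spread more evenly, at 29.5, 16.4, 15.9 and 12.6, so that each H3K36M region exceeded each WT region. The authors' deposited tables put Krt15 at 1.71 in WT cluster 2 and 0.03 in H3K36M cluster 2 against the rest, and Krt5 at 1.18 and 0.30. H3K36M cluster 2 was thus not set apart by Krt15 and Krt5 within its section as WT cluster 2 was. For Krt14 the authors' deposited tables gave 0.19 in WT cluster 2 and -0.38 in H3K36M cluster 2. Krt14 itself was 42.8, 44.8, 46.4 and 108 in the H3K36M clusters and 82.3, 92.8 and 73.9 in the WT clusters.

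The summed differentiated squamous genes were close in both regions, although most of the sum came from Krt13 and Krt4. The 20 members took 663 UMIs per 10000 in WT and 632 in H3K36M cluster 2, a ratio of 0.952 (0.937 to 0.967), with 0 higher and 3 lower past 2-fold, all of them the keratins Krt36, Krt76 and Krt84. The list median was -0.23, and 13 of the 20 lay below the median of all genes. The suprabasal keratins of mucosa were close to equal. Krt13 had 36507 and 9107 UMIs, the most of any gene in both regions, and rates of 270 and 297, a ratio of 1.10 (1.08 to 1.13). Its partner Krt4 had 120 and 133, a ratio of 1.12 (1.08 to 1.16). Lor, which encodes the envelope protein loricrin, had 36.3 and 25.5, a ratio of 0.704 (0.652 to 0.759), and Krtdap, a keratinocyte differentiation protein, 100 and 51.4 with a log2 ratio of -0.96. Of the 14 keratin genes in both tables, 7 were at least 2-fold lower, 0 higher and 7 within 2-fold, against 22 lower of all 284 (7.75%). Krt14 is among the 7, and its call depends on the depth chosen.

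The 10 genes with the most UMIs show the shift in make-up. In WT cluster 2 they were Krt13, S100a8, Fabp5, Krt6a, Krt4, Krt6b, Krtdap, Krt16, Mt4 and Krt14, with 13.3% of all UMIs. In H3K36M cluster 2 they were Krt13, mt-Co1, Krt4, mt-Co3, Fabp5, mt-Atp6, Krt6a, Mt4, mt-Co2 and Eef1a1, with 12.4%. The genes on both lists were Krt13, Krt4, Fabp5, Krt6a and Mt4. Fabp5, the fatty acid-binding protein of epidermis, had rates of 150 and 105, a ratio of 0.701 (0.675 to 0.727). Mt4, the metallothionein of squamous epithelium, had 94.9 and 81.6, a ratio of 0.860 (0.824 to 0.898). S100a8, Krt6b, Krtdap, Krt16 and Krt14 were on the WT list alone, and mt-Co1, mt-Co3, mt-Atp6, mt-Co2 and Eef1a1 on the H3K36M list alone.

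All 9 mitochondrially encoded genes were at least 2-fold higher in H3K36M cluster 2. They encode subunits of the respiratory chain and of ATP synthase and are transcribed from the mitochondrial genome. Together they took 193 UMIs per 10000 in WT and 609 in H3K36M cluster 2, a ratio of 3.16 (3.10 to 3.22). Their list median was 1.67 and their range 1.42 to 2.16, all above the median of all genes. If the averages are left unscaled, the list median is -0.20 and the median of all genes -1.92. The most abundant, mt-Co1 of cytochrome oxidase, had 7520 and 5409 UMIs, rates of 55.5 and 176, and was 3.18-fold higher (3.07 to 3.29). The lowest ratio was that of mt-Co3 of the same enzyme, at 2.68 (2.57 to 2.80) with rates of 44.4 and 119. The highest was that of mt-Nd1 of complex I, at 4.46 (4.08 to 4.88) with rates of 7.33 and 32.7.

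H3K36M cluster 2 stood apart from every other region in these transcripts. Their summed rate was 203, 193 and 319 in WT clusters 1 to 3 and 154, 609, 138 and 60.9 in H3K36M clusters 1 to 4. In the authors' deposited table for H3K36M, the cluster 2 log2 fold changes of the 9 genes were above 2, such as 2.29 for mt-Co1, whereas in the authors' deposited table for WT mt-Co1 stood at 0.01. The nuclear-encoded genes of the respiratory chain did not show a difference of that size. Of 11 members 0 passed 2-fold in either direction, their median was 0.18, and 9 lay above the median of all genes. Their summed rate was 77.4 and 84.7. Atp5b, the catalytic subunit of ATP synthase, was 1.49-fold higher (1.33 to 1.66), while Ndufa4 had a log2 ratio of -0.62. Skeletal muscle transcripts were also higher in this region, as described next, and neither their part in the mitochondrial result nor that of the lower share of H3K36M reads under tissue was tested.

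**Figure D3:**
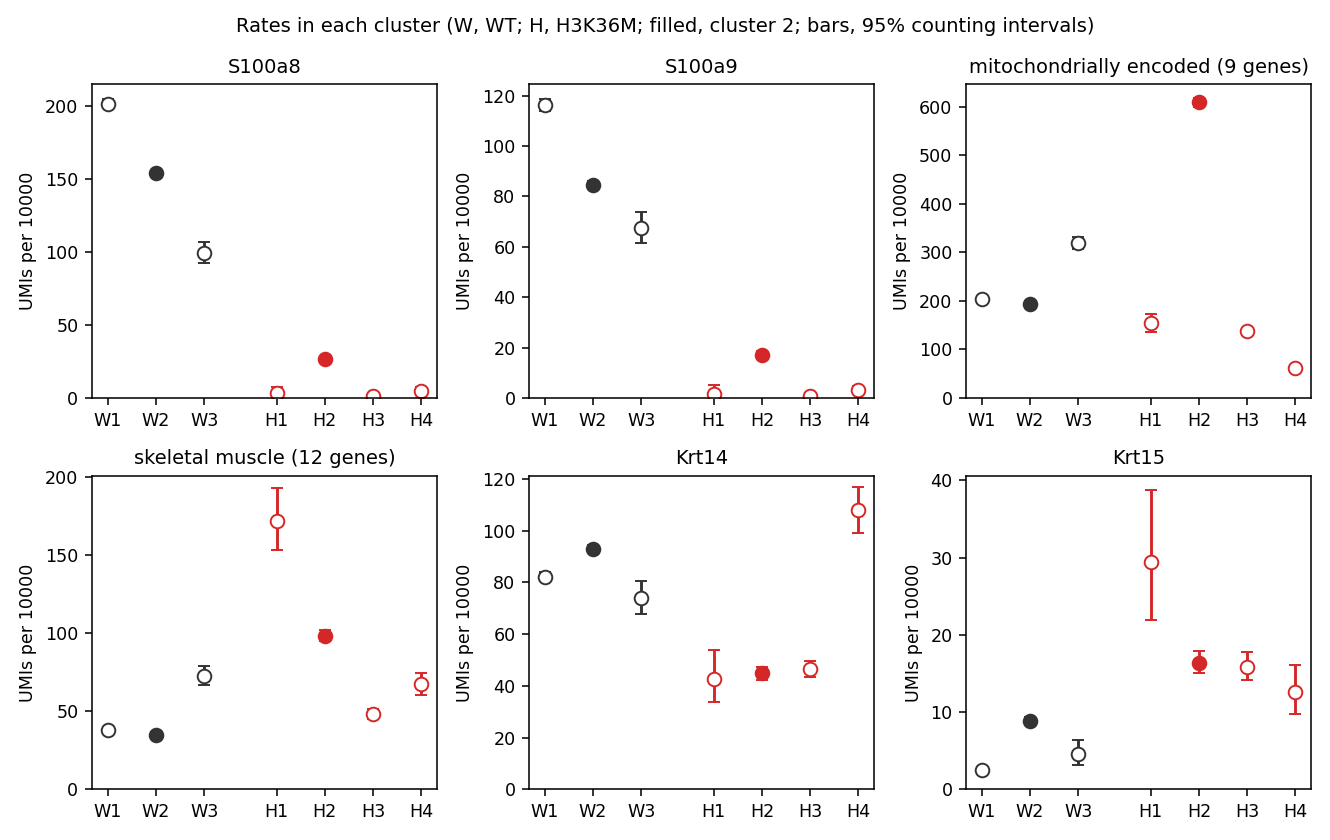
Rates in UMIs per 10000 (y axes) of 4 genes and 2 summed gene lists in the 3 WT clusters (W1 to W3, black) and the 4 H3K36M clusters (H1 to H4, red). Filled points are cluster 2 of each section, and bars are 95% counting intervals, which are hidden behind the points where counts are high. S100a8 and S100a9 are high in all WT clusters and, among H3K36M clusters, highest in cluster 2, where the mitochondrially encoded genes reach 609.

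Skeletal muscle genes were higher in H3K36M cluster 2. Of 12 members in both tables, 10 were at least 2-fold higher and 0 lower, with a median of 1.95 and a range of -0.05 to 2.50, all above the median of all genes. Their summed rate was 34.6 in WT and 98.6 in H3K36M cluster 2, a ratio of 2.85 (2.72 to 2.98). Acta1, skeletal muscle actin (chr8:123891769-123894751, minus strand), had 310 and 398 UMIs, rates of 2.29 and 12.98, and was 5.67-fold higher (4.88 to 6.60). Mb, the oxygen-binding protein myoglobin, had 2.25 and 11.4 and was 5.07-fold higher (4.34 to 5.93). Ckm, muscle creatine kinase, had 2.21 and 10.9 and was 4.95-fold higher (4.22 to 5.80).

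The fast-fibre genes of the contractile apparatus behaved alike. The troponin genes Tnnc2, Tnnt3 and Tnni2 were 4.89-fold, 4.75-fold and 3.56-fold higher, the calcium pump gene Atp2a1 4.21-fold, the myosin light chain gene Mylpf 3.51-fold and the heavy chain gene Myh4 3.20-fold. Tpm1, a tropomyosin that epithelial cells also make, was 2.23-fold higher (1.84 to 2.68). The members within 2-fold were Tpm2, at 1.17 (0.979 to 1.38), and Aldoa, a glycolytic enzyme of many tissues, at 0.963 (0.843 to 1.10). The muscle transcripts were not highest where the mitochondrial ones were. The summed muscle rate was 172, 98.6, 48.3 and 67.5 in H3K36M clusters 1 to 4, where cluster 1 had 154 mitochondrial UMIs per 10000 and cluster 2 had 609. In WT clusters 1 to 3 it was 38.2, 34.6 and 72.8. The part of the lower share of H3K36M reads under tissue in the muscle result was not tested.

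The promoters of the 3 highest muscle genes with a single RefSeq start are shown beside the lower set above, with the same window, build and capitals. They are chr8:123894726-123895025 (minus strand) for Acta1, chr7:19410844-19411143 (plus strand) for Ckm and chr2:164779685-164779984 (minus strand) for Tnnc2.
Acta1: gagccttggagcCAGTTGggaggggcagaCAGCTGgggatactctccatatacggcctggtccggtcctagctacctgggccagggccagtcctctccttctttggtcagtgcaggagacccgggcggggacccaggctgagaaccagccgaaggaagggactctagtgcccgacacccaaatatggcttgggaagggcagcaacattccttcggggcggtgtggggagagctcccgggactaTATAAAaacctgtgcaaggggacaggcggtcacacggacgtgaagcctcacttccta
Ckm: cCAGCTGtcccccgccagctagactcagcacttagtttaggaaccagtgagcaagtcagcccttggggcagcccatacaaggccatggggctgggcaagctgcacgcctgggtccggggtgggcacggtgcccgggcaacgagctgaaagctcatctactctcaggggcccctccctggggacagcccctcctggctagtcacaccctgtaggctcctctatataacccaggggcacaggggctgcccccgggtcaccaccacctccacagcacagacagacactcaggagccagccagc
Tnnc2: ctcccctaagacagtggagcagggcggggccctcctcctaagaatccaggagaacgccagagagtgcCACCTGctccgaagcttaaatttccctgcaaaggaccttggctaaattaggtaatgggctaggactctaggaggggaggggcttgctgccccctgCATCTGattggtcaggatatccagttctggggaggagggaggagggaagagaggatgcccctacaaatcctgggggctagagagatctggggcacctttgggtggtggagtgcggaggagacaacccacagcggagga
Acta1 holds 1 TATAAA and 2 CANNTG, the motif bound by MyoD and related muscle factors, while Ckm holds 1 CANNTG and Tnnc2 holds 2. Promoters were in the table for 9 of the 21 higher genes, 11 promoters in all. CANNTG was in all 11, against 72.3% of all promoters, 82.4% of those of the lower genes and 64.9% of those within 2-fold. TATAAA was in 3 of the 11 (27.3%) and TGANTCA in 0.

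The other 2 higher genes were Lyg1 and Gm42418. Lyg1 (chr1:37946736-37957759, minus strand), a lysozyme-like gene, had the highest ratio of all, 8.02 (4.91 to 13.3), on the low counts of 27 and 49 UMIs. Its rate was 4.50, 0.199 and 10.99 in WT clusters 1 to 3 and 5.78, 1.60, 13.6 and 1.13 in H3K36M clusters 1 to 4. It was lowest in cluster 2 among the WT regions and in clusters 2 and 4, whose counting intervals overlap, among the H3K36M ones. Gm42418 (chr17:39846958-39848788, plus strand), a lincRNA in the annotation that overlaps ribosomal RNA sequence, had 704 and 633 UMIs, rates of 5.20 and 20.6, and was 3.97-fold higher (3.56 to 4.43). Its reads can stem from ribosomal RNA.

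Cytosolic ribosomal protein genes were nearly equal in sum in both regions. The 75 members had a median of -0.00 and a range of -0.72 to 0.51, with 0 past 2-fold, and took 1614 and 1568 UMIs per 10000, a ratio of 0.971 (0.962 to 0.981). They were richest in cluster 2 of each section, at 891, 1614 and 1208 in WT clusters 1 to 3 and 1088, 1568, 1117 and 955 in H3K36M clusters 1 to 4. Copies of these genes elsewhere in the genome make single values uncertain. Of 13 translation factor genes 0 passed 2-fold, 10 lay above the median of all genes, and the list median was 0.27. Their summed rates were 182 and 217, a ratio of 1.19 (1.16 to 1.23). The elongation factor gene Eef1a1 had 48.5 and 64.2, a ratio of 1.32 (1.26 to 1.39). Pabpc1, which binds the poly(A) tail of mRNA, had the highest value of the list, 1.84 (1.65 to 2.05).

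Further lists held no member or few members past 2-fold. The 5 glycolysis genes had a median of -0.05 and 0 past 2-fold, with Gapdh at a ratio of 0.868 and Ldha at 0.983. Of 11 detoxification and redox genes, Txn1 and Aldh1a3 were lower and 9 were within 2-fold, with a list median of -0.23. The 8 desmosome and junction genes, led by Dsp and Jup, which anchor keratin filaments at cell contacts, had 0 past 2-fold and a median of -0.38, with 6 below the median of all genes. The 13 protease and inhibitor genes had 1 lower, Serpinb3a, and a median of -0.25. Of the metallothioneins, which bind zinc and copper, Mt1 had a ratio of 0.955 (0.873 to 1.04) and Mt2 was 1.60-fold higher (1.48 to 1.73). The replacement histone genes H3f3a and H3f3b, which code for the same histone H3.3 protein, had ratios of 0.972 (0.842 to 1.12) and 1.24 (1.09 to 1.42), and the mutant transgene was not analysed here. The fibroblast, endothelial, lymphocyte, erythroid, Schwann and adipocyte lists had 0 members in either table, so these cell types could not be followed at this depth.

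The cluster 2 pair was set beside the other pair of regions with like genes, WT cluster 1 and H3K36M cluster 3, where cornified envelope genes lead. That pair uses other spots of the same sections, so the values are not independent of those above. It had 21 genes at least 2-fold higher in H3K36M (7.39%) and 27 lower (9.51%), with a median of 0.14. The higher genes were mostly not those of the cluster 2 pair. Of the 21 genes higher in cluster 2, 1 was also at least 2-fold higher in this pair and 10 had the opposite sign. Mitochondrially encoded genes made up 9 of these 21, and their median of -0.55 in this pair places most of them among the 10. Of the 22 lower genes, 15 were also at least 2-fold lower in this pair and 2 had the opposite sign. The share of opposite signs among all genes compared was not worked out, so whether these counts are unusual was not tested. The stress keratin list had a median of -1.74 there, against -1.26 in cluster 2, and S100a8 had a log2 ratio of -7.13 against -2.54. The mitochondrially encoded genes had a median of -0.55 there and 1.67 in cluster 2, and the muscle genes 0.41 and 1.95. Krt15 had 2.65 and 0.90.

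**Figure D4:**
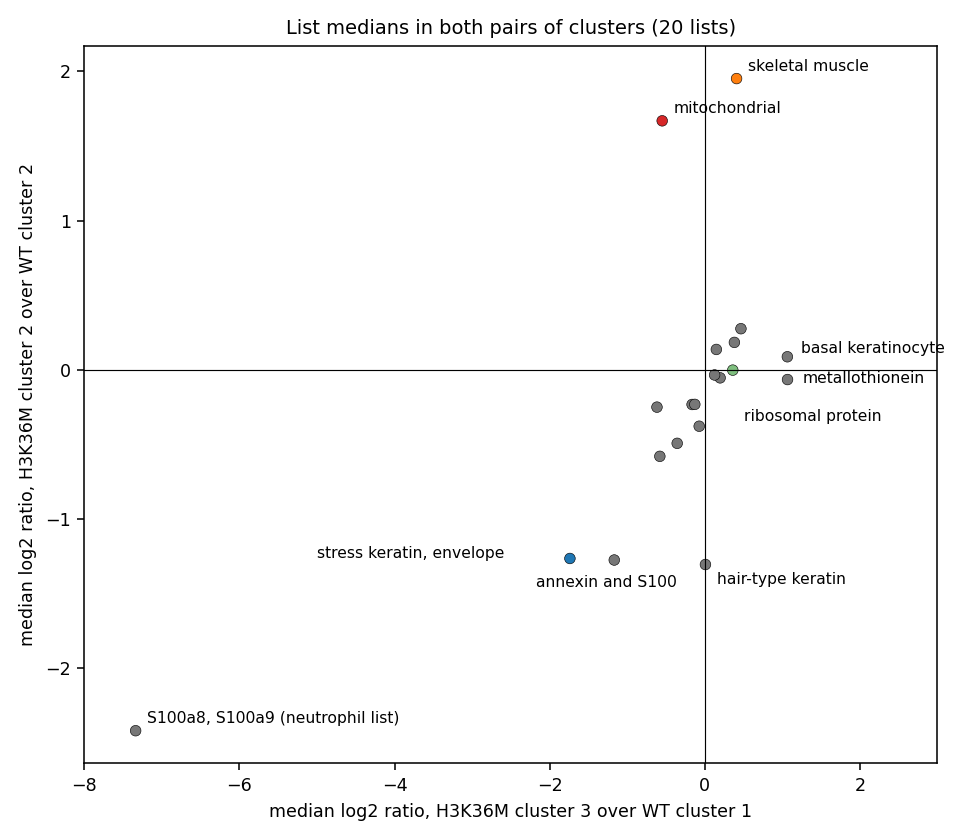
Median log2 ratio of H3K36M over WT for the 20 gene lists in the cluster 2 pair (y axis) and in the pair of WT cluster 1 and H3K36M cluster 3 (x axis). Each point is 1 list, and lines mark equal rates. The mitochondrial list lies at 1.67 on the y axis and -0.55 on the x axis, and the stress keratin list is negative on both.

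The place of cluster 2 within its own section also differed between the genotypes. In the authors' deposited tables, 130 of the 284 genes had positive cluster 2 log2 fold changes in both sections, 76 had negative ones in both, and 78 (27.5%) had opposite signs. Of the 78, 15 were at least 2 log2 units apart. They included 8 of the 9 mitochondrially encoded genes, S100a8, S100a9, Acta1 and Pabpc1, which were positive in the H3K36M table alone. Vmp1 and Igfbp3 were also among the 15 and were positive in the WT table alone. Vmp1, an autophagy gene, had cluster 2 rates of 2.25 and 1.79 and a log2 ratio of -0.33. Igfbp3, an insulin-like growth factor-binding protein gene, had 4.59 and 2.77 and a log2 ratio of -0.73.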

How the data were processed

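Visium-type spatial transcriptomes of 2 mouse tongue sections were analysed, with groups taken from the sample titles. The submitters' processing notes name Space Ranger and GRCm38 (mm10). No tool version, clustering setting or annotation release is named there. For each listed gene and cluster, the deposited tables hold an average signal, a p-value and a log2 fold change, per the file headers. The p-value deposited by the authors was not used. The deposited metrics hold counts of spots and reads per section, signal values per spot, and quality measures given as a fraction.

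Every deposited average was a whole multiple of 1 step per cluster (100% within 0.01), and the deposited log2 fold change equalled that of the cluster against the rest with 1 added to counts and to size factors. This gave the UMIs behind each average and the total of each cluster. Rates, totals and depths rest on this reading. Rates are UMIs per 10000 UMIs of a cluster, with exact Poisson intervals, and ratios have exact conditional intervals, at 95%. They cover counting error only. The calculation was tested on simulated tables.

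The 284 genes and the 31 gene lists were chosen with earlier results of these data known, and support nothing as independent evidence. Genes were called at 2-fold. Named genes were the 12 highest and 12 lowest ratios with at least 20 UMIs in a cluster and without predicted genes, the 10 genes with most UMIs per cluster 2, up to 4 members per list by UMIs, Krt14, Krt5, Krt15, S100a8, S100a9 and the genes beside the 2-fold limit, 88 in all. Other genes past 2-fold, Gm42418, Vmp1 and Igfbp3 were named after their values were seen. A result is not reported here. Positions came from GENCODE M21 (284 of 284 identifiers matched, 283 with the same symbol) and promoters from RefSeq. Python 3.11 with numpy 2.4.6, pandas 2.3.3, scipy 1.17.1 and matplotlib 3.10.9 was used. Alternatives were other depths, other clusters, other folds and other filters.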

Additional observations from a re-analysis of the deposited data

Results flagged for a closer look

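A result was singled out where the log2 fold change of cluster 2 against the rest of its section, in the authors' deposited tables, had opposite signs in the WT and H3K36M sections and differed by at least 2 log2 units. With 1 section per genotype none of these differences was tested. As H3K36M minus WT, in the authors' deposited tables, the difference was 3.83 for S100a8 and 4.24 for S100a9. For the mitochondrially encoded genes it was 2.44 for mt-Co3, 2.33 for mt-Atp6, 2.40 for mt-Nd3, 2.39 for mt-Cytb, 2.79 for mt-Nd2, 2.85 for mt-Co2, 2.56 for mt-Nd4 and 2.47 for mt-Nd1. Muscle actin Acta1 had 2.13 (-0.71 in WT, 1.42 in H3K36M) and Pabpc1 2.08 (-0.45 and 1.63). In the opposite direction, the autophagy gene Vmp1 had -2.15 (0.52 and -1.63) and Igfbp3, an insulin-like growth factor-binding protein gene, -2.03 (0.82 and -1.21), again in the authors' deposited tables.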

How the results depend on the processing

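No paired analysis was possible because there was 1 section per genotype. The 21 higher and 22 lower genes became 21 and 19 when scaled by the UMIs of the 284 genes, and 21 and 20 with the median set to 1, without mitochondrially encoded genes, or without these and muscle genes, the last chosen after seeing the data. The same 21 higher genes stood in each, and the lower genes lost were Krt14 and Lce3f in all 4 and B2m, at -0.98, with the UMIs of the 284 genes. The counts became 77 and 6 with the deposited median UMIs per spot, 1 and 261 with no scaling, 20 and 24 for whole sections, and 36 and 96 against H3K36M cluster 4. Of the 20 and 24 genes of whole sections, 15 and 16 were among the 21 higher and 22 lower genes. Against cluster 4, 8 of the 36 and 11 of the 96 were. Whole sections include cluster 2, and the comparison with cluster 4 keeps WT cluster 2, so these overlaps are partly built in. The lower count was 45 at 1.5-fold, 10 at 3-fold, 14 with the whole interval past 2-fold and 10 among genes listed through cluster 2 in both tables.

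In the order UMIs of the 284 genes, median set to 1, without mitochondrial genes, deposited medians, no scaling, whole sections, cluster 4 and the added alternative, the stress keratin median was -1.17, -1.21, -1.20, -0.45, -3.13, -1.65, -3.04 and -1.19, and the mitochondrial median 1.77, 1.72, 1.73, 2.49, -0.20, 0.95, -1.53 and 1.74. The muscle median was 2.05 with the UMIs of the 284 genes, 2.77 with deposited medians, 0.087 with no scaling, 1.55 for whole sections, 1.13 against cluster 4 and 2.02 with the added alternative.

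Of the genes past 2-fold, these changed sign against H3K36M cluster 4: Aldh1a3 2.72, Anxa1 1.07, Arg1 2.23, Krt14 0.22, S100a6 0.98, mt-Atp6 -1.74, mt-Co1 -1.53, mt-Co2 -1.81, mt-Co3 -2.07, mt-Cytb -1.09, mt-Nd1 -1.47, mt-Nd2 -1.18, mt-Nd3 -2.20 and mt-Nd4 -1.48. Genes within 2-fold did so too, among them H2-K1 0.90, H2-D1 0.26 and Actg1 0.062. The list medians of class I, 0.26, actin and cytoskeleton, 0.60, and immediate early and stress response, 0.56, became positive. Those of translation factor, -0.10, nuclear-encoded respiratory chain, -0.20, replacement histone, -0.29, and basal keratinocyte genes, -0.094, became negative, as did the mitochondrial median. The median of all genes against cluster 4 was -0.58. The translation factor, respiratory chain, replacement histone and basal keratinocyte medians stayed above it, and the mitochondrial median lay below it. With no scaling, which lowers every log2 ratio by 1.86, the median of all genes was -1.92. These genes past 2-fold changed sign there but stayed above that median: Myh4 -0.18, Mylpf -0.052, Tnni2 -0.034, Tpm1 -0.71, mt-Atp6 -0.30, mt-Co1 -0.20, mt-Co2 -0.0073, mt-Co3 -0.44, mt-Cytb -0.20, mt-Nd2 -0.069 and mt-Nd3 -0.26. The cause of the changes against cluster 4 was not tested, and Krt84 and Lce3f, with 0 UMIs there, and the hair-type keratin median had no value. Depth limits genes with few UMIs, such as Aldh1a3, Krt76 and Lyg1.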

Other observations

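Genes listed in 1 table alone extend the picture where their cluster 2 rate exceeded the listing limit of the other section. If the tables list every gene above their limit, which was not checked, such a gene was below that limit in each cluster of the other section. Of the 581 genes in the WT table alone, 12 had a WT cluster 2 rate above the H3K36M limit of 7.24 UMIs per 10000. They included the small proline-rich genes Sprr2i at 15.6, Sprr2d at 11.8 and Sprr2b at 8.81, members of a family of near-identical copies, and Gjb2, the gap junction protein connexin 26, at 13.02. The others were Fam162a at 12.8, the acyl-CoA-binding protein gene Dbi at 9.42, Chil4, Dsc2, Defb3, Rpl36al, Txndc17 and Mif, and Sprr2i was the 1 gene past 2 times the limit. Of the 14 genes in the H3K36M table alone, 4 had an H3K36M cluster 2 rate above the WT limit of 1.99. They were the metallothionein gene Mt3 at 10.7, the muscle sarcomere gene Tcap at 4.99, Gm47283 at 2.74 and the splicing factor gene Snrnp70 at 2.32. These genes were named after their values were seen.

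Transcripts of the called genes were shorter than those of the others. The median length of the longest GENCODE transcript was 1079 bases for the 21 higher, 1264 for the 22 lower and 1700 for the 241 genes within 2-fold, and the median GC content was 50.9%, 51.8% and 52.0%. For the 12 higher genes that are not mitochondrially encoded the medians were 1275 bases and 54.1%. Length was not tested as a source of the differences.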
